A study of Mus musculus with 78 samples.

Results

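Transcripts of 8 detoxifying enzymes were followed through the cerebral arteries of fasted and freely fed mice after carotid stenosis or sham surgery. The 8 genes, Inmt, Ephx1, Fmo1, Fmo2, Cyp4b1, Cyp1b1, Ptgr1 and Aldh1a1, were taken by gene name from the 22046 protein-coding rows of a table of 54532 genes. They had been chosen from measured values, since the fasting and stenosis effects of earlier work on the same libraries were known when the list was drawn up. The fasting and stenosis differences below, and the counts of members past a threshold for them, therefore describe the members and support nothing by themselves. Which measured values decided the choice is not recorded. Differences between days within a diet and surgery are not named in the rule and were tested, but they rest on the same libraries as the daily effects and are not independent of the choice.

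Male wild-type C57Bl6 mice ate ad libitum (AL) or were placed on intermittent fasting (IF) for 3 months and then underwent bilateral carotid artery stenosis (BCAS), a narrowing of both common carotid arteries that lowers blood flow to the brain, or sham surgery. Cerebral arteries were collected 1, 7, 14, 21 or 30 days later. The 78 RNA-seq libraries form 20 groups in 4 arms, with 20 libraries each in sham AL and BCAS IF and 19 each in sham IF and BCAS AL. BCAS AL at day 1 and sham IF at day 7 have 3 libraries and the other groups have 4. All groups are male and wild-type, the age of the mice and the hours of feeding are not given in the sources used here, and day 7 appears only in the group labels. The labels do not say that each library is a separate mouse, so the p-values measure the spread between libraries.

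Detoxification in the classical scheme proceeds by steps. Flavin-containing monooxygenases (the Fmo genes) and cytochromes P450 (the Cyp genes) insert an oxygen atom into foreign and endogenous molecules, epoxide hydrolases and aldehyde dehydrogenases neutralise the reactive epoxides and aldehydes that result, and transferases attach a methyl, glutathione, sulfate or glucuronide group. In blood vessels the same enzyme families also handle the vessel's own lipid mediators, retinoids and steroids.

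Levels are given as FPKM, fragments scaled to gene length and by 1 factor per library. They are per length and so can be compared between genes. Total recovered fragments ranged from 14601572 to 25944175 per library. In 3 AL libraries, replicates 2 and 4 of sham at day 7 and replicate 2 of BCAS at day 1, genes shorter than 300 bases took an outlying share of the fragments. Smooth muscle Acta2 averaged 5006 FPKM and endothelial Cldn5 474 FPKM, each the highest of its marker list. The lowest endothelial marker, Emcn, averaged 1.94 FPKM. Neuronal markers averaged from 0.175 FPKM (Rbfox3) to 15.0 FPKM (Stmn2). Astrocyte markers averaged from 5.44 FPKM (Slc1a2) to 46.6 FPKM (Gfap), and oligodendrocyte markers from 0.209 FPKM (Olig2) to 92.5 FPKM (Cldn11). How much brain tissue the samples held was not tested. A list of 12 fibroblast markers summed to between 3334 and 7057 FPKM per library in sham AL, 4562 to 6748 in sham IF, 4460 to 6647 in BCAS AL and 5296 to 6954 in BCAS IF. Mgp alone averaged 4338 FPKM and Igf2, the lowest of that list, 1.02 FPKM, so these sums mostly follow Mgp. In bulk tissue, fewer cells of a type and less RNA per cell cannot be told apart.

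The start regions of Inmt, Ephx1 and Fmo2 are shown first, because the results turn on these members. RefSeq on GRCm38.p6 gave 9 windows, from 250 bases before to 50 after a gene start, for 7 of the 8 members. Capitals mark matches to any of 7 motifs searched on both strands, which were the E-box CACGTG bound by clock factors, the D-box TTANGTAA bound by Dbp, Tef and Hlf, the ROR element AGGTCA, the glucocorticoid receptor core AGAACA, the xenobiotic response core GCGTG, the antioxidant response core TGACNNNGC and the forkhead element GTAAACA. The Inmt window lies at chr6:55174941-55175240, the Ephx1 window at chr1:181017520-181017819 and the downstream of the 2 Fmo2 windows at chr1:162898444-162898743, each on the minus strand and written 5′ to 3′.
Inmt: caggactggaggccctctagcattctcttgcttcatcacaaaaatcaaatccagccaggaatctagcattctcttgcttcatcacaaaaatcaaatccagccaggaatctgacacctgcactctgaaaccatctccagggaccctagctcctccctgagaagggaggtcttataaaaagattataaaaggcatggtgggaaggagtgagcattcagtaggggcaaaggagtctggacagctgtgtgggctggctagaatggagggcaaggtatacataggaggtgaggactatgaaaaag
Ephx1: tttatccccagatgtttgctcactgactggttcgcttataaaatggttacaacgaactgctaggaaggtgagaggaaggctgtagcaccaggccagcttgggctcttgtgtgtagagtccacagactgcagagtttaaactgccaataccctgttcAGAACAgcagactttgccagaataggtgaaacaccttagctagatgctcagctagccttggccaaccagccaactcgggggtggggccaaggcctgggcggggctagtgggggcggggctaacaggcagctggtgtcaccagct
Fmo2: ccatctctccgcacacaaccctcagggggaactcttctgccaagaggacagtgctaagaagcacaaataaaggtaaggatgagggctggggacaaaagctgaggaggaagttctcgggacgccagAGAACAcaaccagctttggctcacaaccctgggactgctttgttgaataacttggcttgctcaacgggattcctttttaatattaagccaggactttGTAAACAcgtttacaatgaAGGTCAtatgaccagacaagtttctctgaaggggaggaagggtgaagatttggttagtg

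The Inmt window held none of the 7 motifs and no CpG, against a median of 7 CpG over the 32851 mouse windows. It did hold a direct repeat, a stretch of 49 bases that began 235 bases before the start and again 189 bases before it. A repeat at least that long was present in 0.365% of all windows, and the longest in any other member's window was 12 bases. The Ephx1 window held AGAACA 94 bases before the start. This start lies within the gene's span given below, not at its 5′ end. The printed Fmo2 window held AGAACA at 125, GTAAACA at 28 and AGGTCA at 9 bases before the start, with no overlap between the matches. This start and the matches also lie within the span of Fmo2 given below. The other Fmo2 window, upstream, held none of the motifs. AGAACA was present in 19.0% of all windows, AGGTCA in 16.3% and GTAAACA in 3.65%. Of the windows not printed, Cyp4b1 held AGAACA on the other strand and Cyp1b1, with 16 CpG, held GCGTG on the other strand, a core found in 32.4% of all windows. Those of Ptgr1 and Aldh1a1 held none of the 7 motifs. The E-box, D-box and antioxidant core, present in 7.15%, 2.32% and 12.4% of all windows, were in no member's window. These matches describe letters in the windows and say nothing of binding.

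All 8 members passed the filter of 1 FPKM in 3 libraries. Fmo2 lay closest to it, with a lowest library at 0.527 FPKM and 77 of 78 libraries at 1 FPKM or more. Ephx1, microsomal epoxide hydrolase, was the most abundant at 173 ± 21.8 FPKM (mean ± SD, n = 78), at the 97.9th percentile of protein-coding genes. Aldh1a1, which oxidises retinal to retinoic acid, averaged 47.2 ± 9.12 FPKM, and Cyp1b1, a P450 that oxidises polycyclic aromatic hydrocarbons and oestradiol, 43.0 ± 8.02 FPKM. Inmt, indolethylamine N-methyltransferase, averaged 17.2 ± 9.72 FPKM and Ptgr1, a reductase of prostaglandins and leukotriene B4, 12.9 ± 2.16 FPKM. The scarcest were Fmo1 at 4.78 ± 0.979, Cyp4b1, a P450 of fatty acids and plant toxins, at 4.15 ± 1.29, and Fmo2 at 2.64 ± 1.20 FPKM. Fmo2 rested on 67 to 769 fragments per library and Cyp4b1 on 82 to 376, against 4130 to 9681 for Ephx1. Between its highest and lowest group means Inmt spanned 5.30-fold, Fmo2 3.81-fold, Cyp4b1 2.59-fold and the other members 1.49- to 1.81-fold.

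Genomic positions are those of the authors' table on GRCm38. Inmt spans chr6:55170626-55175043 on the minus strand. Fmo1 at chr1:162829561-162866610 and Fmo2 at chr1:162874317-162898726 are neighbours on the minus strand within a cluster of Fmo genes. The cluster's Fmo6 averaged 0.119 FPKM and Fmo4 less than that, while Fmo9, further along the chromosome, was listed at 0 in every library. Ephx1 lies at chr1:180976210-181020904, Cyp4b1 at chr4:115624725-115647723, Ptgr1 at chr4:58965439-58987119 and Cyp1b1 at chr17:79706953-79715041, all on the minus strand, and Aldh1a1 at chr19:20492715-20643462 on the plus strand. Ephx1 overlaps the pseudogene Gm36961 on its own strand, which averaged 0.437 FPKM, and Aldh1a1 overlaps an antisense gene and a pseudogene that averaged 0.0200 and 0.0176 FPKM.

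Inmt, which transfers a methyl group to tryptamine and related amines, was higher under fasting in both surgeries and on all 5 days. Across days it was 5.33, 8.69 and 13.5 FPKM (lowest, median and highest library) in sham AL and 16.7, 24.1 and 38.2 FPKM in sham IF. After BCAS it was 4.12, 8.71 and 15.1 FPKM under AL and 13.7, 25.4 and 38.2 FPKM under IF. Every sham IF library was above every sham AL library, whereas in BCAS the lowest IF library, at day 21, was below the highest AL library, at day 7. On each single day the IF and AL libraries did not overlap in either surgery. The mean difference over days on the log2(FPKM + 1) scale was 1.47 ± 0.09 (SE) after sham, or 2.77-fold, and 1.45 ± 0.09 after BCAS, or 2.73-fold. These were the 3rd and 4th largest absolute changes among the 15707 genes tested in the respective comparisons.

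**Figure D1:**
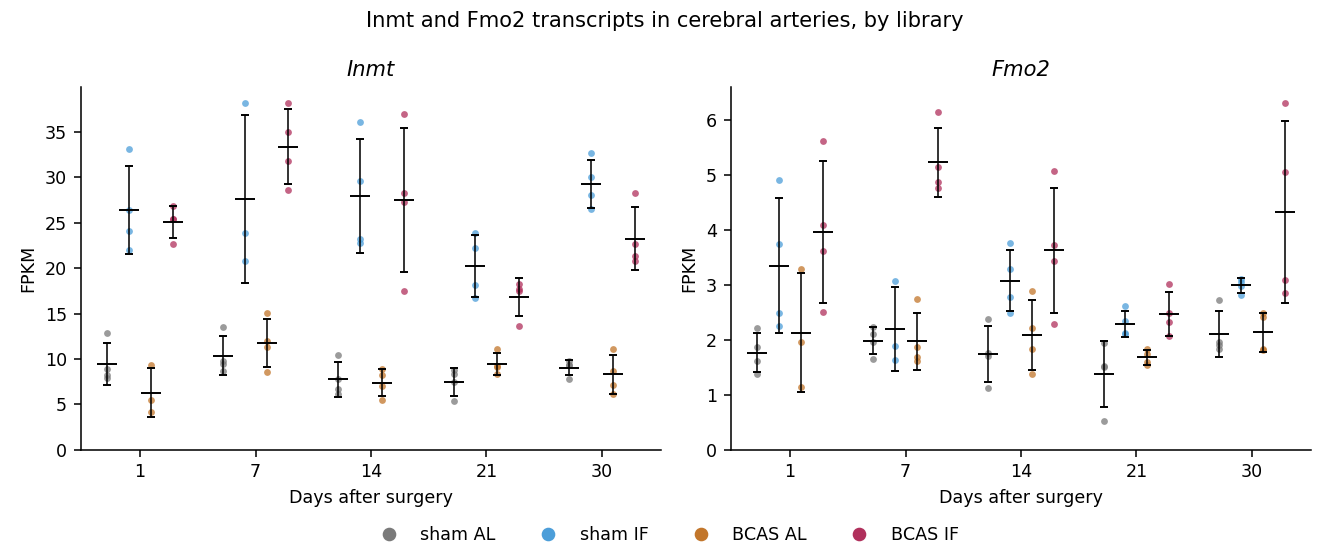
Inmt (left) and Fmo2 (right) in FPKM (vertical axes, from 0) against days after surgery (horizontal axes) in each of the 78 libraries, by arm, with horizontal lines for group means and bars for ± 1 SD. Inmt in the IF groups averaged between 16.8 and 33.4 FPKM against 6.30 to 11.7 FPKM in the AL groups, and Fmo2 was highest in BCAS IF at day 7, at 5.24 FPKM.

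The daily values of Inmt after BCAS show where the difference was wide or narrow. At day 1 the BCAS IF libraries held 25.4, 26.8, 22.6 and 25.4 FPKM and the BCAS AL libraries 5.50, 9.28 and 4.12 FPKM. At day 21 the BCAS IF libraries held 17.5, 13.7, 18.2 and 17.7 FPKM and the BCAS AL libraries 11.1, 9.15, 8.34 and 9.20 FPKM. The groups were apart on both days, with a narrower gap at day 21. The log2 difference was 1.90 ± 0.21 at day 1, 1.45 ± 0.19 at day 7, 1.74 ± 0.19 at day 14, 0.77 ± 0.19 at day 21 and 1.40 ± 0.19 at day 30. Without BCAS AL day 1 replicate 2, a library rich in short genes, the day 1 difference was 2.17. After sham the daily differences ranged from 1.30 ± 0.21 to 1.72 ± 0.19.

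Ephx1, which adds water to reactive epoxides, shifted less in fold but with less spread between libraries. It was 130, 153 and 170 FPKM (lowest, median and highest) in sham AL against 170, 190 and 202 FPKM in sham IF. After BCAS it was 135, 158 and 172 FPKM under AL against 178, 188 and 216 FPKM under IF. In both surgeries every IF library was above every AL library. The mean log2 difference was 0.33 ± 0.03 after sham and 0.31 ± 0.03 after BCAS, with daily values from 0.23 to 0.48 after sham and from 0.23 to 0.40 after BCAS. Over all genes tested, groups that did not overlap across the whole arm made up 0.0637% in sham, where Inmt and Ephx1 were 2 of the 10 such genes, and 0.134% in BCAS, where Ephx1 was 1 of 21.

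Fmo2, the flavin monooxygenase best known from lung, was 0.527, 1.85 and 2.72 FPKM (lowest, median and highest) in sham AL and 1.63, 2.78 and 4.92 FPKM in sham IF. After BCAS it was 1.14, 1.83 and 3.29 FPKM under AL and 2.08, 3.67 and 6.31 FPKM under IF, so the arms overlapped in both surgeries. The mean log2 difference was 0.43 ± 0.09 after sham and 0.69 ± 0.09 after BCAS. At day 7 after BCAS the IF libraries held 6.15, 5.16, 4.87 and 4.77 FPKM and the AL libraries 1.70, 1.61, 1.87 and 2.74 FPKM. The same day after sham gave 1.63, 3.07 and 1.90 FPKM under IF and 1.96, 2.23, 2.11 and 1.65 FPKM under AL. The IF and AL libraries were thus apart at day 7 after BCAS and overlapped at day 7 after sham. In log2 terms the day 7 difference was 1.07 ± 0.19 after BCAS and 0.08 ± 0.21 after sham.

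Fmo1, its neighbour and a form best known from liver and kidney, differed by 0.26 ± 0.06 after sham and 0.32 ± 0.06 after BCAS on the log2 scale. It was 2.04, 4.18 and 6.18 FPKM in sham AL, 4.11, 5.34 and 6.53 FPKM in sham IF, 3.06, 4.19 and 5.23 FPKM in BCAS AL and 3.48, 5.60 and 6.85 FPKM in BCAS IF (lowest, median and highest). These ranges overlapped in both surgeries. Day 21 after sham had the largest daily difference, 0.61 ± 0.14, and sham AL day 21 replicate 4 was the lowest library of all 78 for both Fmo1 and Fmo2.

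The remaining members had smaller mean differences with diet after sham, while after BCAS that of Cyp4b1 was close to those of Ephx1 and Fmo1. Aldh1a1 was higher under IF by 0.16 ± 0.06 after sham and 0.24 ± 0.06 after BCAS on the log2 scale, with medians of 44.6 and 49.4 FPKM in sham AL and IF and 42.5 and 46.2 FPKM in BCAS AL and IF. Cyp4b1 differed by 0.31 ± 0.08 after BCAS and by 0.13 ± 0.08 after sham. Cyp1b1 differed by 0.09 ± 0.06 after sham and 0.06 ± 0.06 after BCAS, and Ptgr1 by 0.02 ± 0.05 and 0.09 ± 0.05. For these members the IF and AL arms overlapped in both surgeries.

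**Figure D2:**
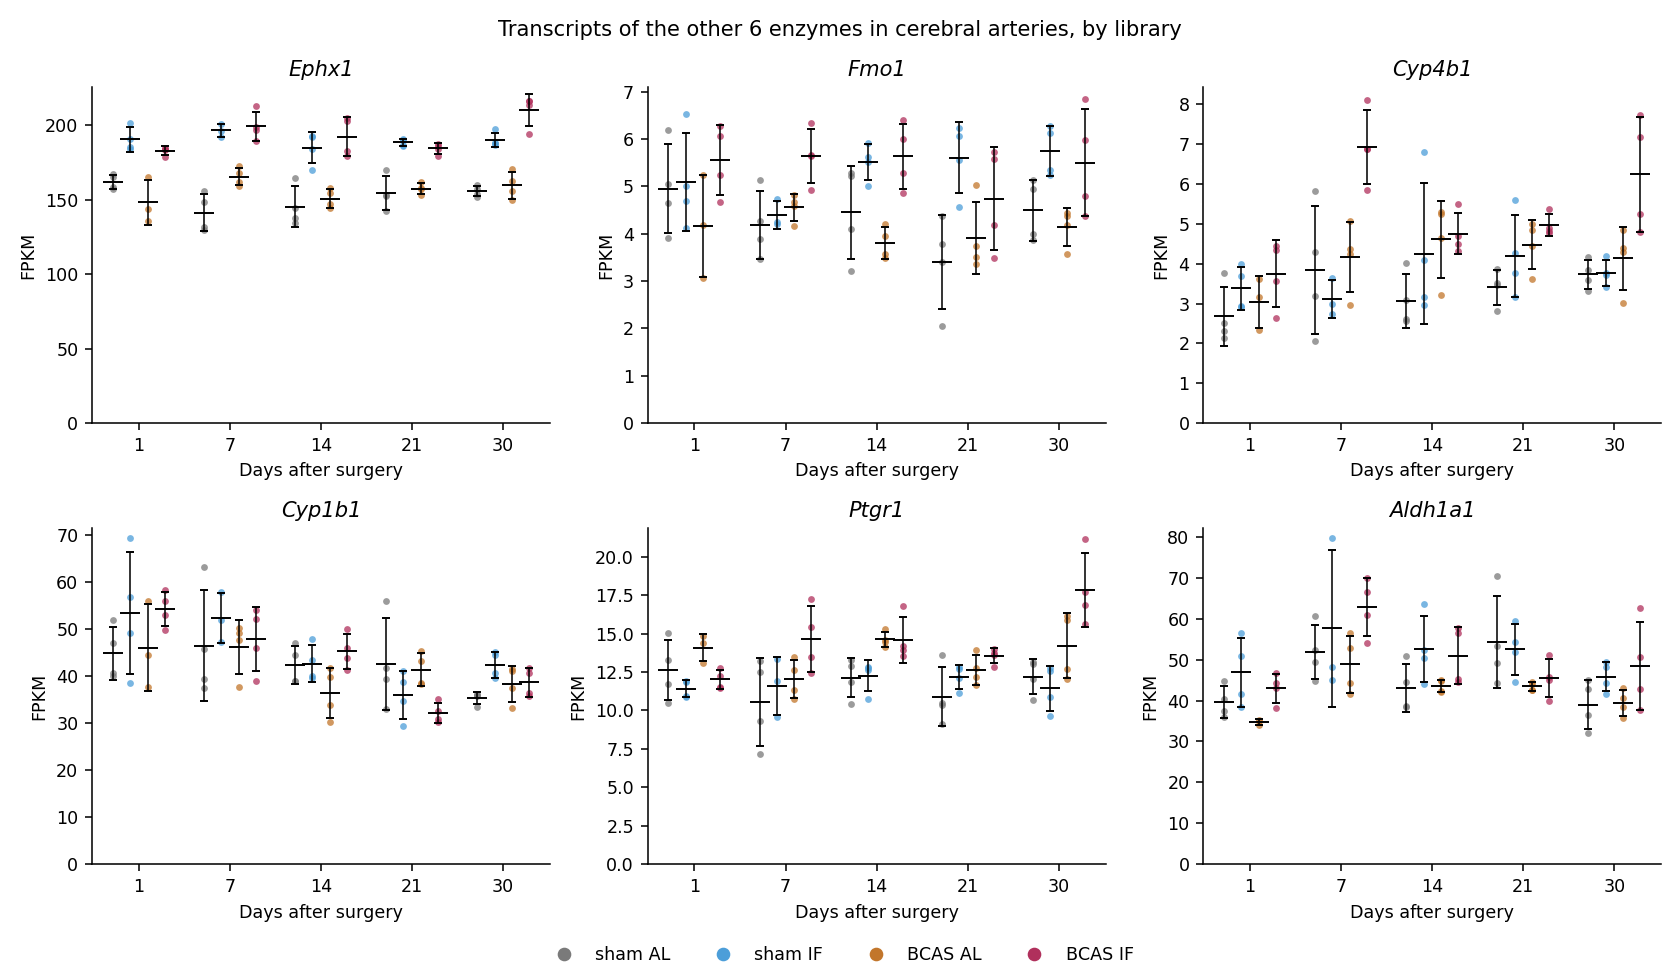
FPKM (vertical axes, from 0) of the other 6 enzymes against days after surgery (horizontal axes) in each library, by arm, with horizontal lines for group means and bars for ± 1 SD. Ephx1 IF libraries lie above the AL libraries on each day, and Ptgr1 is highest in BCAS IF at day 30, at a mean of 17.8 FPKM.

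Counted over the table, 5 of the 8 members passed an adjusted p of 0.05 for fasting after sham as the mean of days (Inmt, Ephx1, Fmo2, Fmo1 and Aldh1a1, all higher), where 23.7% of all genes passed in either direction and 11.8% were higher. After BCAS 6 of 8 passed, the same 5 and Cyp4b1, all higher, where 23.1% of genes passed and 11.2% were higher. By day after sham, 2 members passed at day 1 (3.67% of genes), 2 at day 7 (9.05%), 2 at day 14 (4.39%), 3 at day 21 (0.382%) and 2 at day 30 (4.82%). Inmt and Ephx1 passed on each of these days and Fmo1 joined them at day 21. By day after BCAS, 3 members passed at day 1 (4.37% of genes), 4 at day 7 (2.25%), 3 at day 14 (5.67%), 2 at day 21 (0.802%) and 3 at day 30 (1.35%). Inmt and Ephx1 passed on all of them, with Fmo2 at days 1, 7 and 30, Cyp4b1 at day 7 and Fmo1 at day 14. Because these contrasts chose the members, nothing is read from the counts. Of the mean differences, only that of Aldh1a1 after sham lost its call when single libraries were left out, for 23 of 39 libraries, at values between 0.11 and 0.19, and it also did not pass by limma-voom, at 0.15, or without day 1, at 0.15. Among the daily calls, that of Ephx1 at day 21 after BCAS was lost without any of 8 libraries, and those of Inmt at day 21 and of Fmo2 at day 30 and Cyp4b1 at day 7 after BCAS without 6 of 8 each. That of Fmo2 at day 1 after BCAS was lost without 5 of 7 libraries, those of Fmo1 without 5 of 8 at day 14 after BCAS and 3 of 8 at day 21 after sham, and that of Ephx1 at day 1 after sham without 2 of 8.

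Other transcripts moved with the same contrast. A list of 12 genes of the circadian clock and its output had 9 genes higher and 3 lower (Arntl, Npas2 and Nfil3) under IF in both surgeries. These opposite shifts partly cancel in a mean over the list. That mean level on the log2(FPKM + 1) scale was 3.18 ± 0.17 (SD) in sham AL, 3.56 ± 0.13 in sham IF, 3.13 ± 0.12 in BCAS AL and 3.53 ± 0.14 in BCAS IF. The list summed to 99.6 to 196 FPKM per library in sham AL, 168 to 290 in sham IF, 96.6 to 152 in BCAS AL and 145 to 267 in BCAS IF. All 12 genes passed for fasting in both surgeries, so the mean level of the list overlaps with diet. Nothing is read from a call lost with it as a term. With that level as a term in the model, chosen after seeing the data, the fasting difference of Inmt was 1.38 after sham and 1.35 after BCAS, and that of Ephx1 0.25 and 0.23. That of Fmo2 was 0.21 and 0.45, and that of Fmo1 0.12 and 0.18, and neither gene passed in either surgery. Aldh1a1 moved the other way at day 14 after BCAS, where its fasting difference was 0.43 with the term and 0.21 without it. Of the 12 fibroblast markers, 2 were higher and 1 lower under IF after sham, and 3 higher and 2 lower after BCAS. With the fibroblast level as a term, 5 and 6 members passed, as without it. The part of either list in the differences was not tested further.

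**Figure D3:**
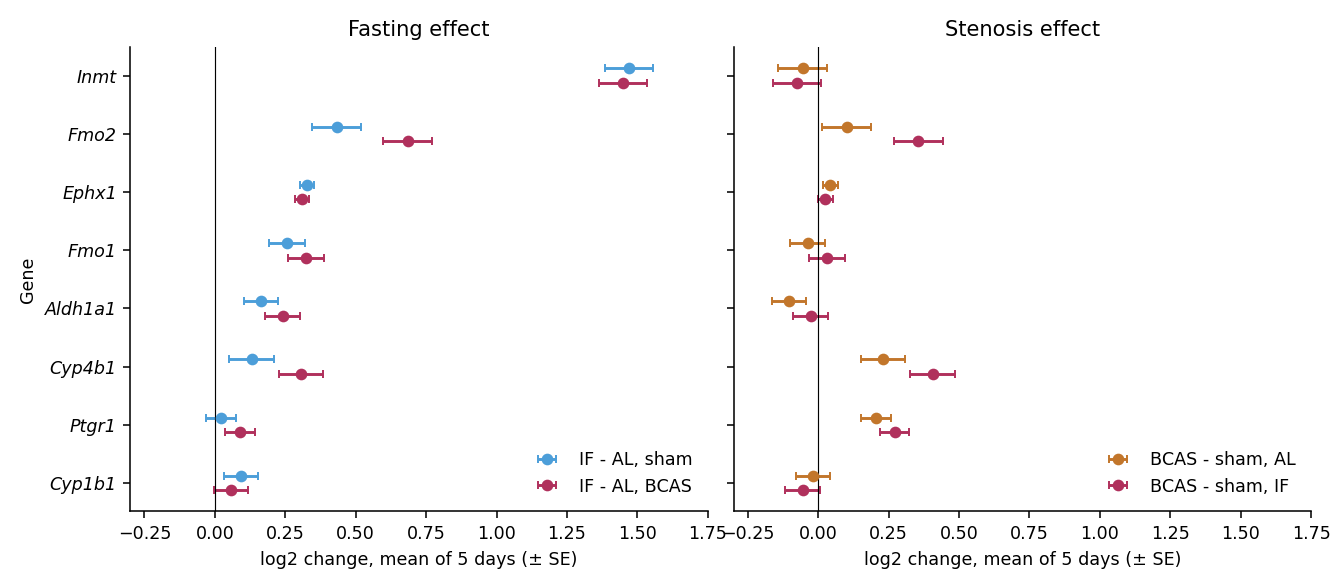
Mean log2 change over 5 days (horizontal axes, ± SE) for each gene (vertical axis), with the fasting effect after sham and BCAS on the left and the stenosis effect under AL and IF on the right. The fasting changes of Inmt, near 1.5, stand far to the right of the others, and the stenosis changes of Cyp4b1, Fmo2 and Ptgr1 under IF lie between 0.27 and 0.41.

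The stenosis differences were smaller than the fasting difference of Inmt. Ptgr1, Cyp4b1 and Fmo2 were higher after BCAS under IF, and Ptgr1 under AL, while the mean stenosis differences of Inmt (-0.05 ± 0.09 under AL and -0.07 ± 0.09 under IF) and Ephx1 (0.04 ± 0.03 and 0.03 ± 0.03) did not pass. Ptgr1 was 7.15, 11.9 and 15.0 FPKM (lowest, median and highest) in sham AL, 10.8, 13.5 and 16.2 FPKM in BCAS AL, 9.56, 11.9 and 13.3 FPKM in sham IF and 11.5, 13.8 and 21.2 FPKM in BCAS IF. The sham and BCAS ranges overlapped under both diets. The mean log2 difference was 0.20 ± 0.05 under AL and 0.27 ± 0.05 under IF. Under AL, Ptgr1 was the 1 member of 8 that passed, where 0.987% of genes did. Its call was lost without any of 11 of the 39 libraries, at differences between 0.17 and 0.23, and leaving out the 3 short-gene-rich libraries turned its day 7 difference from 0.21 to -0.09.

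Under IF, 3 members passed as the mean of days, Cyp4b1 at 0.41 ± 0.08, Fmo2 at 0.36 ± 0.09 and Ptgr1 at 0.27 ± 0.05, where 0.758% of genes passed. Day 7 held the largest values for Cyp4b1 and Fmo2. Cyp4b1 was 5.86, 8.12, 6.87 and 6.89 FPKM in BCAS IF and 3.65, 2.73 and 2.98 FPKM in sham IF, a log2 difference of 0.95 ± 0.19. Fmo2, with the BCAS IF values given above and 1.63, 3.07 and 1.90 FPKM in sham IF, differed by 0.98 ± 0.21. The BCAS IF libraries of both genes lay above all sham IF libraries of that day, and these were the 2 members that passed, where 0.153% of genes did. Without day 7 the mean differences were 0.27 for Cyp4b1 and 0.20 for Fmo2 and neither passed. Sham IF at day 7 has 3 libraries. The day 7 call was lost without sham IF replicate 2 or BCAS IF replicate 2 for Cyp4b1 (differences of 0.88 to 1.04 over all libraries left out) and without sham IF replicates 1 or 3 or BCAS IF replicates 1 or 2 for Fmo2 (0.86 to 1.17). The Fmo2 mean was lost without any of 6 of 39 libraries, at 0.32 to 0.39.

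At day 30 Ptgr1 was 16.9, 15.6, 17.7 and 21.2 FPKM in BCAS IF against 12.7, 12.6, 10.9 and 9.65 FPKM in sham IF. The groups did not overlap, and the log2 difference was 0.60 ± 0.12, the 1 member called where 0.0891% of genes were. The call was lost without sham IF replicates 3 or 4 or BCAS IF replicate 4, at 0.52 to 0.65. Under AL the single daily call was Ephx1 at day 7, with 168, 162, 172 and 159 FPKM in BCAS AL against 148, 156, 132 and 130 FPKM in sham AL. These groups did not overlap either, and the difference was 0.23 ± 0.06, where 2.63% of genes passed. It was lost without sham AL replicate 4, 1 of the short-gene-rich libraries, or BCAS AL replicates 2 or 3, at 0.19 to 0.28, and limma-voom on fragment counts called no member on that day. On the other days no member passed by limma or limma-voom, with 0 to 2 members at an unadjusted p under 0.05. On those days 490 to 1829 of the 15707 genes tested reached that p.

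The stenosis effects under the 2 diets were compared directly. The IF minus AL difference of the mean stenosis effects was 0.25 ± 0.12 for Fmo2, 0.18 ± 0.11 for Cyp4b1, 0.07 ± 0.07 for Ptgr1 and -0.02 ± 0.12 for Inmt on the log2 scale. By limma 0 of 8 members passed, where 0.0127% of genes did, and limma-voom called 0. An unadjusted p under 0.05 was reached by 1 member and by 629 of the 15707 genes tested. A stenosis call under IF alone is therefore not shown to differ from AL. These counts, like the effects, describe members chosen on them. Variation of the effects over days also gave 0 of 8 members in each of 4 tests by limma and by limma-voom. The share of all genes that passed was 1.97% for stenosis under AL, 0% under IF, 0.00637% for fasting after sham and 0.0255% after BCAS. At an unadjusted p under 0.05 the members numbered 2 and 3 for stenosis under AL and IF and 2 and 3 for fasting after sham and BCAS. Of the 15707 genes tested, 2895 and 794 reached that p for stenosis and 2589 and 1228 for fasting, in the same order. Whether the members exceed these shares was not tested.

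Differences between days within an arm were tested over all genes (limma F test over 5 days, Benjamini-Hochberg adjusted). A member chosen for a large effect on 1 day, such as Cyp4b1 or Fmo2 at day 7 in BCAS IF, also carries a difference between days in that arm, so the counts of members are not independent of the choice. In BCAS IF 6 of the 8 members differed between days, where 5.23% of all genes did. Cyp1b1 was highest at day 1, with 58.2, 49.7, 55.9 and 52.9 FPKM, and lowest at day 21, with 32.5, 30.9, 35.1 and 30.2 FPKM (adjusted p = 0.00177). These days did not overlap. Inmt was highest at day 7, with 38.2, 35.0, 28.6 and 31.8 FPKM, and lowest at day 21 (adjusted p = 0.00982). The calls of Cyp1b1 and Inmt stayed past the threshold whichever library was left out.

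The other 4 calls in BCAS IF were less firm. Cyp4b1 averaged 3.75 ± 0.84 FPKM (SD, n = 4) at day 1 and 6.93 ± 0.93 FPKM at day 7 (limma adjusted p = 0.0210), a call lost without BCAS IF day 1 replicates 2 or 3. Ptgr1 was 12.3, 12.8, 11.6 and 11.5 FPKM at day 1 and averaged 17.8 FPKM at day 30 (adjusted p = 0.0245), a call lost without day 1 replicates 3 or 4 or day 30 replicates 3 or 4. Fmo2 averaged 2.48 FPKM at day 21 and 5.24 FPKM at day 7 (adjusted p = 0.0319), a call lost without day 7 replicates 1 or 3 or day 21 replicates 1, 3 or 4. Aldh1a1 averaged 43.0 FPKM at day 1 and 62.9 FPKM at day 7 (adjusted p = 0.0494), and its call was lost without any of 14 of the 20 libraries. The adjusted p without a library reached 0.0847 for Cyp4b1, 0.122 for Ptgr1, 0.119 for Fmo2 and 0.152 for Aldh1a1. Leaving out a whole day also ended calls. Without day 7, Inmt (adjusted p = 0.0557), Cyp4b1 (0.0547), Fmo2 (0.156) and Aldh1a1 (0.537) did not pass by limma, and without day 1, Cyp4b1 (0.254), Ptgr1 (0.225) and Aldh1a1 (0.154) did not. Cyp1b1 passed without either day.

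Fewer members differed between days in the other arms. In sham AL 2 of 8 passed, where 17.3% of genes did. Aldh1a1 averaged 39.0 FPKM at day 30 and 54.3 FPKM at day 21 (limma adjusted p = 0.0207), and Ephx1 141 FPKM at day 7 and 162 FPKM at day 1 (adjusted p = 0.0363). Without the 3 short-gene-rich libraries neither passed, at adjusted p of 0.117 and 0.112. In sham IF Cyp1b1 passed alone, with means of 53.4 FPKM at day 1 and 36.0 FPKM at day 21 (adjusted p = 0.0469), where 1.88% of genes did, and 13 of 19 libraries left out ended the call, at up to 0.184. In BCAS AL Inmt passed alone, with means of 6.30 FPKM at day 1 and 11.7 FPKM at day 7 (adjusted p = 0.0368), where 4.48% of genes did. That call was lost without day 1 replicates 1 or 3, day 7 replicates 1, 3 or 4, or day 14 replicates 1 or 3, at up to 0.161. Leaving out a day ended these calls too, since without day 1 Cyp1b1 in sham IF stood at an adjusted p of 0.118, Inmt in BCAS AL at 0.187 and Aldh1a1 in sham AL at 0.0692 by limma, and Ephx1 in sham AL did not pass either, and without day 7 Inmt stood at 0.348 and Ephx1 at 0.199. In sham AL the Aldh1a1 call was also lost without day 7 replicate 4 or day 21 replicate 4, at up to 0.0757, and the Ephx1 call without day 1 replicates 2, 3 or 4, day 7 replicates 3 or 4, or day 14 replicates 1 or 2, at up to 0.149. The tests of variation of the effects over days, given above, compare the days of arms that share a diet or a surgery. They gave 0 of 8 members, so a call in 1 arm is not shown to differ from another.

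Aldh1a1 and the fibroblast markers moved together between libraries. Over the deviations of the 78 libraries from their group means, Pearson's r of Aldh1a1 with the fibroblast list was 0.737, and libraries of 1 group share surgery, diet and day but not depth. The same measure was 0.434 for Cyp1b1, 0.113 for Inmt, -0.112 for Ephx1 and -0.181 for Fmo2. Aldh1a1 also had r of 0.415 with the astrocyte list, -0.454 with the smooth muscle list and -0.498 with the pericyte list. Ptgr1 had 0.521 with the smooth muscle list and -0.399 with the fibroblast list, and Fmo1 0.453 with the macrophage list and -0.410 with the smooth muscle list. For Inmt, Ephx1 and Fmo2 r with every list lay between -0.261 and 0.315. With the fibroblast level as a term in the model, neither Aldh1a1 nor Ephx1 passed between days in sham AL, at adjusted p of 0.0816 and 0.0853 by limma. Among the members, Fmo1 and Fmo2, neighbours on chromosome 1, had the highest r of these deviations at 0.504, whereas Inmt with Ephx1 had 0.121 and Inmt with Fmo2 -0.041. Over the 20 group means, in which AL and IF groups lie apart, r was 0.920 for Inmt with Ephx1 and 0.819 for Inmt with Fmo2.

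**Figure D4:**
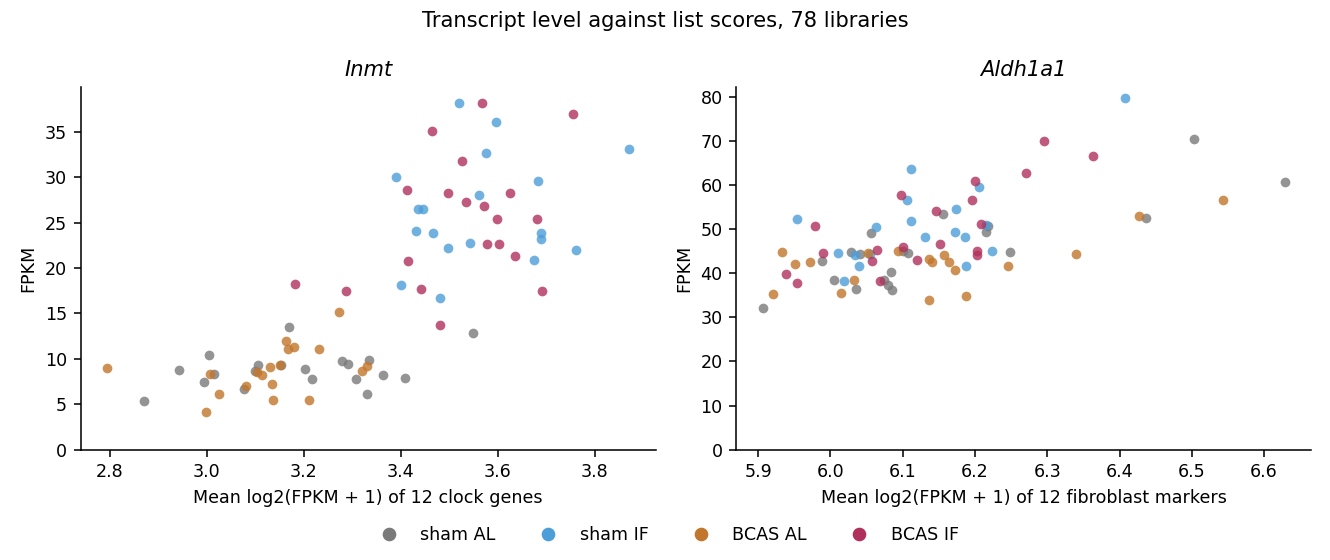
Left, Inmt in FPKM against the mean log2(FPKM + 1) of 12 clock genes; right, Aldh1a1 in FPKM against that of 12 fibroblast markers, for each of 78 libraries coloured by arm. Inmt falls into a fasted and a freely fed cloud that the clock level also separates in part, and the library with most Aldh1a1, 79.7 FPKM, has a fibroblast level in the upper part of the range.

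Other genes of the same pathways were taken from 8 lists of oxidising, hydrolysing and conjugating enzymes and their sensors, 111 genes in all, of which 85 could be tested. They were not picked for how they moved, though the lists were drawn up with earlier results of these data known. Under fasting, 35 were higher and 2 lower after sham, and 42 higher and 1 lower after BCAS. The median log2 change over the 85 was 0.11 after sham and 0.12 after BCAS, against 0.0064 and 0.0024 over all genes tested. Over all genes, 23.7% passed in either direction after sham and 23.1% after BCAS, with 11.8% and 11.2% higher, and the counts by list below are to be read against these shares. For stenosis 0 of 85 passed under either diet by limma, with 14 under AL and 17 under IF at an unadjusted p under 0.05. Of the 15707 genes tested, 1842 under AL and 1518 under IF reached that p. By limma-voom 1 and 2 of the 85 were called, and 157 and 167 over all genes. Whether the 85 exceed these shares was not tested.

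Among the oxidising enzymes, 7 of the 17 tested P450 and flavin monooxygenase genes were higher under fasting after sham and 12 after BCAS. Cyp27a1, the sterol 27-hydroxylase, rose by 0.29 ± 0.04 and 0.34 ± 0.04 on the log2 scale, Cyp4f13 by 0.30 ± 0.05 and 0.29 ± 0.05, and Cyp39a1, an oxysterol hydroxylase, by 0.19 ± 0.05 and 0.23 ± 0.05. Of their 5 electron donors, Por, the reductase that feeds microsomal P450s, rose by 0.21 ± 0.05 and 0.22 ± 0.05, while Cyb5b, the outer mitochondrial membrane cytochrome b5, fell by 0.14 and 0.13. Cyb5r3, cytochrome b5 reductase, rose after BCAS by 0.10 ± 0.03.

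Of 14 tested aldehyde dehydrogenases 7 were higher in each surgery, with Aldh3a1 up by 0.30 ± 0.08 and 0.58 ± 0.08, Aldh3b1 by 0.28 ± 0.06 and 0.25 ± 0.06, and Aldh9a1 by 0.14 ± 0.03 and 0.13 ± 0.03. Of 15 epoxide hydrolases and ketone or quinone reductases, 7 were higher after sham and 6 after BCAS. Nqo1, the quinone reductase, rose by 0.28 ± 0.06 and 0.32 ± 0.06, Cbr4, a carbonyl reductase, by 0.19 ± 0.04 and 0.26 ± 0.04, and Ephx2, soluble epoxide hydrolase, by 0.14 ± 0.04 and 0.17 ± 0.04.

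Among conjugating enzymes, 11 of 19 glutathione transferases were higher in each surgery, including Gstt2 (0.35 ± 0.05 and 0.34 ± 0.05), Gsta4, which clears lipid aldehydes (0.24 ± 0.05 and 0.34 ± 0.05), and Gstt1 (0.22 ± 0.04 and 0.31 ± 0.04). Genes of 1 transferase family are close in sequence, and how reads shared between them were counted is not given in the sources used here. Sult1a1, the phenol sulfotransferase, rose by 0.30 ± 0.07 and 0.49 ± 0.07, Sult5a1 rose after BCAS by 0.31 ± 0.07, and Sult4a1 did not pass at -0.06 ± 0.11 and -0.04 ± 0.11. Of 5 other small-molecule methyltransferases 1 was higher after sham and 2 after BCAS. Nnmt, which methylates nicotinamide, rose by 0.27 ± 0.08 and 0.39 ± 0.08, and As3mt, the arsenic methyltransferase, rose after BCAS by 0.09 ± 0.03.

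Of 7 tested genes for the sensors that switch such genes on, 1 was lower under fasting after sham, Tiparp, a target and repressor of the aryl hydrocarbon receptor, by a fall of 0.11 on the log2 scale, and it stood at 0.03 ± 0.04 after BCAS. With 7 genes such a count is not set apart from the 23.7% of all genes that passed after sham. Nfe2l2, the oxidant-responsive factor Nrf2, did not pass at -0.08 ± 0.04 and -0.0023 ± 0.04, nor did its inhibitor Keap1 at 0.02 ± 0.03 and 0.07 ± 0.03. With the clock level as a term in the model, 1 of the 85 genes passed after sham and 6 after BCAS. That term overlaps with diet, and the share of all genes that passed with it is not given here. Nothing is therefore read from these counts.

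Genes whose pattern was most like that of Inmt or Fmo2 were ranked by Pearson's r over the 20 group means among 12444 protein-coding genes. For Inmt they were Per3 (r = 0.971) and Tef (0.962), a period gene and a PAR bZIP factor of the circadian clock, the tetraspanin Tspan4 (0.959) and Mthfd1l (0.955), a mitochondrial enzyme of folate metabolism. Since AL and IF groups lie apart, r was lower within a diet, at 0.751, 0.648, 0.377 and 0.576 over the 10 AL groups and 0.683, 0.670, 0.671 and 0.634 over the 10 IF groups. For Fmo2 they were Uri1 (0.930), Cdkn2c (0.919), a cyclin-dependent kinase inhibitor, Psmf1 (0.915), a proteasome inhibitor, and the receptor tyrosine kinase Axl (0.914). Within diets these gave 0.507 to 0.647 over the AL groups and 0.823 to 0.924 over the IF groups. Per3 was higher under fasting by 1.05 ± 0.05 after sham and 1.28 ± 0.05 after BCAS, and Axl by 0.20 ± 0.02 and 0.24 ± 0.02.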

How the data were processed

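Cerebral artery RNA from 78 libraries was sequenced, with 2 ug of total RNA per library per the labels' protocols. The deposited table gives FPKM per gene, computed by the authors, with gene positions and lengths on GRCm38; the aligner and counter are not given in the sources used here, and DESeq 1.10.1 appears in the submitters' processing notes. All values under 1000 fragments came out as whole fragments (within 0.05) once the gene length and the library's scale were taken out. Fragment counts were thus recovered and used for the limma-voom alternative. Of the gene IDs 54495 matched GENCODE M21. Median-of-ratios factors computed from the deposited values were 1.005 to 1.006. By that measure the libraries were already on nearly the same scale.

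The members and lists were chosen with earlier results of these data known. Log2(FPKM + 1) values of the 15707 genes with at least 1 FPKM in 3 or more libraries were fitted with limma 3.58.1 in R 4.3.3 (trend and robust options, 20 group means, all 78 libraries), with Benjamini-Hochberg adjustment over all genes and a threshold of 0.05. A fold change on this scale understates that of low genes. A contrast was called by that threshold alone. Named genes are the 8 members, up to 3 genes of each companion list with the smallest p over the 4 mean contrasts, and the 4 genes most like Inmt and most like Fmo2. Alternatives were another pseudocount (0.1), no filter or 5 FPKM, median-of-ratios scaling, limma-voom, no trend or robust option, only the compared arms, leaving out days 1 or 7, the 3 short-gene-rich libraries or each of 78 libraries, and terms for fibroblast and smooth muscle levels. The clock level was added after seeing the data. Median-of-ratios scaling could hardly change a contrast, because its factors were nearly equal, at 1.005 to 1.006. The procedure was also run on simulated data, and the outcome is not given here. Some genes that the rule names are not reported here.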

Additional observations from a re-analysis of the deposited data

Results flagged for a closer look

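In 7 of the 144 groups of 4 libraries examined (8 members in 18 groups), 1 library stood apart from the other 3 by Dixon's criterion, and chance alone flags about 1 group in 20. Inmt in BCAS IF day 21 replicate 2 was 13.7 FPKM against 17.5 to 18.2 FPKM in the others of its group. Ephx1 stood apart in 3 groups, at 197 FPKM in sham IF day 30 replicate 3 (others 187 to 188), at 178 FPKM in BCAS IF day 1 replicate 2 (others 184 to 185) and at 194 FPKM in BCAS IF day 30 replicate 1 (others 214 to 216). Fmo2 in sham AL day 30 replicate 1 was 2.72 FPKM against 1.83 to 1.97 FPKM. Cyp1b1 in sham AL day 30 replicate 4 was 33.4 FPKM against 35.8 to 36.2 FPKM, and Ptgr1 in sham IF day 14 replicate 4 was 10.7 FPKM against 12.7 to 12.9 FPKM.

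In 2 cases every library of the treated or fasted group lay above the mean of its control group in 1 setting and every one lay below it in the other, and the difference between the groups was not tested on that day. Inmt at day 21 was 1.99 FPKM higher after stenosis under AL and 3.45 FPKM lower under IF (-3.45). Cyp4b1 at day 7 was lower under fasting after sham (-0.731 FPKM) and 2.77 FPKM higher after BCAS. Without the 3 short-gene-rich libraries, which include sham AL day 7 replicates 2 and 4, the log2 difference of Cyp4b1 after sham went from -0.18 to 0.02.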

How the results depend on the processing

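No paired analysis was possible because the labels give no replicate numbers that groups share. No called result changed sign. Among uncalled log2 differences 129 values over all settings did, 7 of them without the 3 short-gene-rich libraries, where at day 7 Ptgr1 went from 0.21 to -0.09 for stenosis under AL and from 0.15 to -0.15 for fasting after sham, and Cyp4b1 from -0.18 to 0.02 for fasting after sham. The members called for fasting numbered 4 to 5 after sham and 6 after BCAS under every setting run, single libraries left out included, except the clock level as a term, which left 2 and 3 (other detoxifying genes 1 and 6, from 37 and 43). The clock term overlaps with diet, and the share of all genes that passed with it is not given here. Of the settings run, median-of-ratios scaling could hardly move any count, because its factors were 1.005 to 1.006. Stenosis under AL fell from 1 to 0 members without the filter on low values, without day 1, with the clock term and with only the compared arms (0 to 1 leaving out single libraries), and under IF from 3 to 1 without day 7 (2 to 3). The members that differed between days in BCAS IF numbered 3 without day 1 or without day 7 (3 to 6 leaving out single libraries) and 4 to 7 under the other settings. In sham AL they fell from 2 to 1 with no filter, limma-voom, without day 7 and with the clock term, and to 0 without the short-gene-rich libraries, without day 1, with the fibroblast or smooth muscle term and with only the compared arms (0 to 3). In sham IF and BCAS AL (0 to 1 each) they fell from 1 to 0 with no filter, without day 1 and with the clock term, in sham IF also with no trend or robust option and only the compared arms, in BCAS AL also with limma-voom, without day 7 and with either cell term. Other detoxifying genes called for stenosis rose from 0 under AL to 1 with the 5 FPKM filter, limma-voom, without day 7 and the fibroblast term and to 2 without day 1 (0 to 2), and under IF to 2 with limma-voom and without the short-gene-rich libraries and to 1 with either cell term and only the compared arms (0 to 1). The cause was not tested. Depth limits Fmo2, at 67 to 769 fragments per library, and Cyp4b1, at 82 to 376.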
